A study of Homo sapiens with 3 samples.

Results

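GAS5, SNHG1, SNHG3, SNHG5, SNHG6, SNHG7, SNHG8, SNHG12, SNHG15 and ZFAS1 are host genes of small nucleolar RNAs (snoRNAs) whose spliced transcripts are known to be degraded while they are translated. These 10 genes were taken by symbol from the 51136 genes of the deposited count table, and each had reads in every library. The table covers PANC-1, an established human pancreatic ductal carcinoma cell line, profiled by RNA-seq of total RNA in 3 libraries. The control library came from cells given no agent, the Rg3 library from cells given 200 μM Ginsenoside Rg3 for 24 h, and the TAM library from cells given 50 μM tamoxifen for 24 h. Rg3 is a saponin of ginseng and TAM an antiestrogen that also inhibits protein kinase C; the labels name no vehicle for the control cells. Each condition had 1 library, so no difference below has a replicate check.

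snoRNAs guide the chemical modification of ribosomal RNA. Box C/D snoRNAs direct methylation of the ribose and box H/ACA snoRNAs direct pseudouridylation, and in human cells most of them are cut from introns. The spliced exons of a noncoding host are exported, ribosomes enter at short reading frames, and the stop codons upstream of splice junctions mark the RNA for nonsense-mediated mRNA decay (NMD). Many such hosts begin with a 5′ terminal oligopyrimidine tract (TOP), the start shared by mRNAs of ribosomal proteins, and their RNA is known to accumulate when translation or NMD is blocked.

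The starts of the genes are shown because the TOP was not part of the choice of genes. The lines give 30 bases before and 30 bases from the RefSeq start on GRCh38.p14, for 8 of the 10 members. SNHG6 and SNHG15 are not among them, and the shares of member starts given below leave both out. Capitals mark a run of at least 5 pyrimidines (C or T) that opens with C within 5 bases of the start, searched on the strand of the gene.
SNHG5 (chr6:85678704-85678763, minus strand): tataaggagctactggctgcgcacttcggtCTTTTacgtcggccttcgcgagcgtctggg
ZFAS1 (chr20:49278612-49278671, plus strand): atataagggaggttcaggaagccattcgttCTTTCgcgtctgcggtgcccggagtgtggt
SNHG12 (chr1:28581844-28581903, minus strand): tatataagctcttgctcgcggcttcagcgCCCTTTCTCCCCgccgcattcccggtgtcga
SNHG7 (chr9:136728155-136728214, minus strand): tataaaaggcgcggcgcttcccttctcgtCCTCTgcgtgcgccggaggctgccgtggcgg
SNHG8 (chr4:118278732-118278791, plus strand): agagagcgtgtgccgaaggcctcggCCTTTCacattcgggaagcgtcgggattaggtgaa
SNHG1 (chr11:62855856-62855915, minus strand): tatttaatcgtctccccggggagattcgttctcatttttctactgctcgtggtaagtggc
GAS5 (chr1:173869016-173869075, minus strand): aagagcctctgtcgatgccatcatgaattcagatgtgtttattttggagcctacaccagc
SNHG3 (chr1:28505913-28505972, plus strand): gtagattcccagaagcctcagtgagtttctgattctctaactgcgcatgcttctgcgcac
Such a run was found at 5 of the 8 starts (62.5%) and at 7408 of 35116 promoters of the RefSeq table (21.1%). When the C had to be the start base itself, 3 of the 8 had a run (SNHG5, ZFAS1 and SNHG12), against 4.07% of all promoters. The run was longest in SNHG12, with 12 bases. No match says only that these letters are not in the window, and a gene can have further starts. The windows of GAS5 and SNHG3 lie wholly upstream of the GENCODE 29 positions of these genes given below. For these genes, no match therefore does not describe the annotated start.

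The reading frames are shown because the stop of such a frame is what NMD is known to read. The lines give the frame from the first ATG to its stop in capitals, with 12 bases on either side, in 1 RefSeq-matched GENCODE 29 transcript each of SNHG15, SNHG5 and ZFAS1, the 3 members that differed most between Rg3 and control.
SNHG15 (transcript bases 368 to 448): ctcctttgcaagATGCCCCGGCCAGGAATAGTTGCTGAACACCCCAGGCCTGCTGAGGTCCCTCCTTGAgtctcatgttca
SNHG5 (transcript bases 34 to 165): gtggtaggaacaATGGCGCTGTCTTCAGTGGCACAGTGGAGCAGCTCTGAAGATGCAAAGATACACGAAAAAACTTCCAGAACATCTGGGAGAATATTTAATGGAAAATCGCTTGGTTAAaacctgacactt
ZFAS1 (transcript bases 110 to 211): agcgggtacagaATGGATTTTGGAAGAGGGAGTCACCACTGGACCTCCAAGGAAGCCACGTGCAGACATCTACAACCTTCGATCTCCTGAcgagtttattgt
Over the 28 member transcripts with a RefSeq match, the first frame had between 4 and 118 codons, stop included. In 25 of the 28 a splice junction lay over 50 bases after the stop, the arrangement that NMD is known to recognise. The share over other spliced transcripts was not computed. The genes were chosen as hosts degraded during translation, so this count is a description and no test of their decay. Among the 10 genes, SNHG3 was the only one without such a transcript: its single RefSeq-matched transcript had 3 exons and no junction that far downstream.

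The reads counted on genes came to between 11300766 and 12861693 per library, and the 10 hosts received 4955, 7220 and 5690 of them in the control, Rg3 and TAM libraries. Of 6 markers of the line, VIM, KRT8 and KRT18 had at least 7406 counts per library, KRT7 and KRT19 between 93 and 665, and EPCAM 26, 26 and 8. Of 6 markers of other pancreatic cells, PTPRC, PECAM1, PRSS1 and INS had at most 1 count, COL1A2 at most 5, and COL1A1 had 1853, 1005 and 734. Fold changes compare counts scaled with edgeR's TMM factors, and the intervals are exact 95% intervals for counting error only. A gene was called higher or lower past a fold of 1.5 or 0.67, the limits in the study's methods. Against division by library totals, TMM shifted every log2 fold change by -0.14 for Rg3 and by 0.21 for TAM. Differences from control followed the GC content of the longest transcript (Spearman's rho -0.81 over 11583 genes for Rg3 and 0.51 over 11022 genes for TAM, each with 50 or more counts), and rho with its length was 0.20 and -0.45. Folds are therefore also given detrended, that is, after a smooth fit on GC content and transcript length was subtracted. Genes are not independent replicates, and these correlations describe the libraries. The fit takes GC content and length together, and their separate part in a member's fold was not tested.

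Per length, the hosts spanned more than an order of magnitude. Levels are in CPM, the TMM-scaled counts brought to 1 common library size as in edgeR. In the control library, SNHG5 had 131 CPM per kilobase (95% interval 123 to 139), ZFAS1 had 111 (104 to 119) and GAS5 had 83.0 (76.8 to 89.7). SNHG6 stood at 82.9, which did not differ from GAS5 beyond counting error. SNHG15 (58.4) and SNHG1 (56.6) formed the next pair, also within counting error of each other. SNHG7 (21.4) and SNHG8 (18.9) overlapped, and SNHG3 (12.5) and SNHG12 (6.31) were lowest. SNHG5 was the highest and SNHG12 the lowest in each of the 3 libraries, though in the TAM library the intervals of SNHG12 (8.48, 6.84 to 10.4) and SNHG3 (10.4, 9.10 to 11.9) overlapped. In the Rg3 library SNHG15 stood below SNHG1, at 34.2 (30.9 to 37.6) against 62.6 (57.9 to 67.5). In the TAM library SNHG15 stood above SNHG1, at 96.7 (90.1 to 104) against 58.2 (52.8 to 63.9). Lengths are the median of the GENCODE 29 transcripts of a gene, so that the order depends on which transcripts the cells make.

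**Figure D1:**
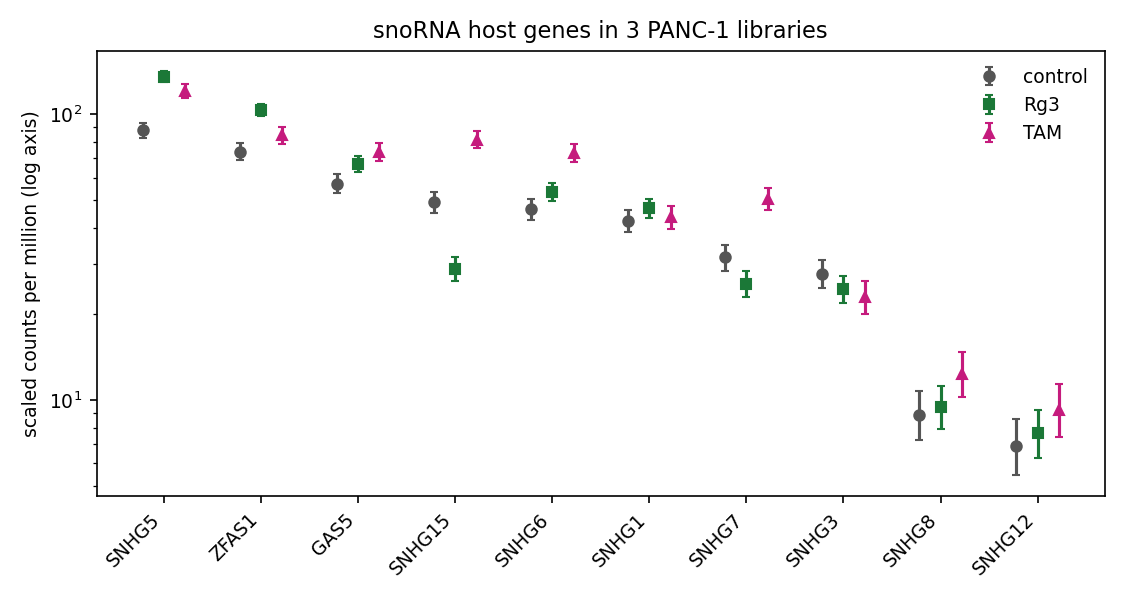
TMM-scaled CPM (log axis) of the 10 snoRNA host genes in the control, Rg3 and TAM libraries; points are single libraries and bars are exact 95% Poisson intervals for counting error. SNHG15 and SNHG7 are lowest with Rg3 and highest with TAM, while the intervals of SNHG1 overlap in all 3 libraries.

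With Rg3, 2 of the 10 hosts passed the fold, SNHG5 higher and SNHG15 lower, where 44.6% of the 16487 genes compared did (25.0% higher and 19.5% lower). Among genes with 50 or more counts, as every member had, the share was 41.8%. The folds of the members lay between 0.584 and 1.54, with a median log2 fold change of 0.15 beside 0.04 for all genes. Detrended at the longest transcripts, 3 of the 10 passed, ZFAS1 and SNHG12 higher and SNHG15 lower, where 19.0% of the 14276 genes with a GC content did. At the RefSeq-matched transcripts SNHG12 (1.16 to 1.36) and SNHG15 (0.715 to 0.797) were inside the limit. ZFAS1 ranged there from 1.18 to 1.99, and no other member passed. The share of members past the limit was thus below that of all genes as scaled. It was above that of all genes when detrended at the longest transcripts only, and neither difference was tested. With TAM, 3 of 10 passed, SNHG15, SNHG7 and SNHG6, each higher, where 41.2% of 16079 genes passed (17.4% higher and 23.8% lower). At 50 or more counts 37.4% did. The median of the members was 0.44 beside -0.02 for all genes, and 9 of the 10 lay above 0, with SNHG3 below. With library totals SNHG1 (-0.17) and ZFAS1 (-0.02) were below 0 as well. Detrended at the longest transcripts, SNHG12 (-0.05) and ZFAS1 (-0.26) were below 0 beside SNHG3. The height of the members' median also depended on the scaling and on the detrending. It was 0.23 with library totals, where 0 of the 10 passed, and 0.23 detrended at the longest transcripts. There 1 of the 10 passed (SNHG15), where 29.6% of 14013 genes did. At its RefSeq-matched transcripts SNHG15 was inside the limit, at 1.19 to 1.28. Division by library totals also moved the split over all genes, to 5180 higher and 2321 lower with Rg3 (4122 and 3223 with TMM) and to 1576 higher and 5259 lower with TAM (2799 and 3823 with TMM).

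The hosts of box C/D snoRNAs were GAS5, SNHG1, SNHG5, SNHG6 and ZFAS1. SNHG5 (chr6:85660950-85678748, minus strand, GENCODE 29) hosts SNORD50A and SNORD50B and opens with the run CTTTT shown above. It had 1007, 1949 and 1201 counts in the control, Rg3 and TAM libraries. Scaled, these came to 87.7, 135 and 121 CPM, so that both treated libraries lay above the control library and Rg3 was the highest. The fold was 1.54 with Rg3 (1.43 to 1.67), the largest increase of a member in that library, and 1.38 with TAM, which did not pass (log2 0.46, 0.34 to 0.58). The interval with Rg3 reached below 1.5, and the detrended fold was 1.43 at the longest transcript and 1.28 at the RefSeq-matched transcript, both within the limit.

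ZFAS1 (chr20:49278178-49295738, plus strand), the antisense neighbour of ZNFX1, hosts SNORD12, SNORD12B and SNORD12C. Its counts were 848, 1488 and 839 in the control, Rg3 and TAM libraries. The Rg3 library was the highest after scaling, with a fold of 1.40 (1.29 to 1.52) against 1.14 with TAM (1.04 to 1.26), and neither passed the limit. With library totals the log2 fold change with Rg3 was 0.62 and passed. Its detrended fold varied with the transcript assumed, from 1.18 to 1.99 with Rg3 and from 0.801 to 1.05 with TAM. Its RefSeq-matched transcripts range from 44.3% to 59.2% GC and from 504 to 1008 bases. Exons of ZFAS1 overlap ZNFX1 by 249 bases on the opposite strand, and the use of strand in counting is not given in the sources used here.

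GAS5 (chr1:173863900-173868882, minus strand), named for its accumulation in growth-arrested cells, carries 10 snoRNAs in its introns. Its counts were 656, 963 and 733. Scaled, both treated libraries were slightly above control, with folds of 1.17 (1.06 to 1.29) and 1.29 (1.16 to 1.43), inside the limits. Detrended, the fold with Rg3 was 0.851 at the longest transcript and between 1.03 and 1.15 at the RefSeq-matched ones.

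SNHG1 (chr11:62851988-62855914, minus strand) carries 8 box C/D snoRNAs and had 486, 674 and 433 counts. Its folds were 1.11 with Rg3 (0.983 to 1.25) and 1.03 with TAM (0.901 to 1.17), and neither could be told from 1 within counting error. With library totals its log2 fold change with TAM was -0.17, of the other sign. SNHG6 (chr8:66921684-66926398, minus strand), the host of SNORD87, had 533, 769 and 728 counts. TAM was highest after scaling, with a fold of 1.58 (1.41 to 1.77), against 1.15 with Rg3 (1.03 to 1.29). The detrended TAM fold was 1.43, and with library totals its log2 value was 0.45, both short of the limit. Exons of SNHG6 overlap MCMDC2 on the opposite strand by 365 bases.

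The remaining 5 genes host box H/ACA snoRNAs, and SNHG12 a box C/D snoRNA in addition. SNHG15 (chr7:44983023-44986961, minus strand), a host of SNORA9 known as a short-lived RNA, differed most between the libraries. It had 565 counts with no agent, 414 with Rg3 and 810 with TAM, or 49.2, 28.8 and 81.4 CPM after scaling. The 3 intervals did not overlap, with Rg3 below and TAM above control. SNHG7 had the same order without overlap, and the intervals of SNHG5 did not overlap either. The share of all genes with such intervals was not computed. The fold was 0.584 with Rg3 (0.513 to 0.664) and 1.65 with TAM (1.48 to 1.85). With Rg3 the whole interval of SNHG15 lay past the limit, the 1 such case among the 10 members, where 16.3% of all genes had one. With TAM the interval reached below 1.5, and 0 of the 10 members had theirs wholly past the limit, where 15.4% of all genes did.

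A share of the reads on the 10 hosts does not depend on the scaling between libraries. SNHG15 took 11.4% of them in the control library (10.5 to 12.3, exact binomial 95% interval), 5.73% in the Rg3 library (5.21 to 6.29) and 14.2% in the TAM library (13.3 to 15.2). SNHG5 moved the other way with Rg3, from 20.3% (19.2 to 21.5) to 27.0% (26.0 to 28.0), and stood at 21.1% with TAM. Detrending kept the directions of SNHG15 and lowered the sizes. At the longest transcript the folds were 0.626 with Rg3 and 1.53 with TAM, both past the limit, but at its 4 RefSeq-matched transcripts they lay between 0.715 and 0.797 and between 1.19 and 1.28, inside it. Those transcripts hold 53.6% to 57.1% GC, more than the 49.7% of the longest. No exon of SNHG15 overlaps an annotated gene other than SNORA9.

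SNHG7 (chr9:136721366-136728184, minus strand), the most GC-rich member at 65.9%, hosts SNORA17 and SNORA43. Its counts were 362, 366 and 503, with TAM highest after scaling at a fold of 1.60 (1.40 to 1.84) and Rg3 at 0.806 (0.695 to 0.935). Detrending moved this gene most among the members: the detrended folds were 1.13 with TAM and 1.34 with Rg3. Exons of SNHG7 overlap FAM69B on the opposite strand by 1094 bases. SNHG3 (chr1:28505980-28510892, plus strand), the host of SNORA73A and SNORA73B, had 317, 351 and 228 counts. Its scaled values were below control in both treated libraries, at 0.883 with Rg3 (0.756 to 1.03) and 0.830 with TAM (0.697 to 0.987). It shares 242 exonic bases with RCC1 on the same strand, so reads there cannot be told apart.

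SNHG8 (chr4:118278709-118279823, plus strand), the host of SNORA24, had 102, 136 and 123 counts. Its folds were 1.06 with Rg3 (0.816 to 1.39) and 1.39 with TAM (1.06 to 1.83). SNHG12 (chr1:28578538-28583132, minus strand), the host of SNORA44, SNORA61, SNORA16A and SNORD99, had 79, 110 and 92 counts, with folds of 1.11 with Rg3 (log2 0.15, -0.28 to 0.59) and 1.34 with TAM (0.984 to 1.84). Detrended, SNHG12 had a fold of 1.57 with Rg3 at the longest transcript and of 1.16 to 1.36 at the RefSeq-matched ones.

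**Figure D2:**
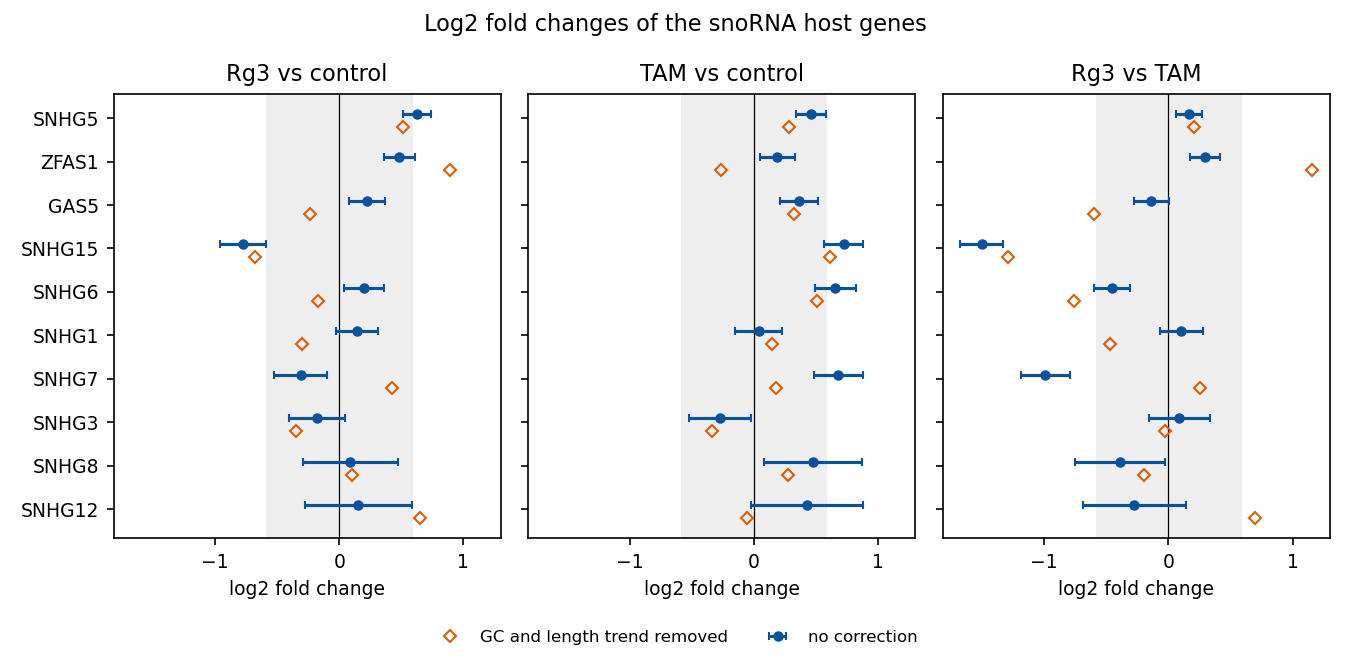
Log2 fold changes of the 10 hosts for Rg3 against control, TAM against control and Rg3 against TAM; filled circles with bars are TMM-scaled values with exact 95% counting intervals, open diamonds are detrended values (longest transcript), and the grey band spans folds of 0.67 to 1.5. SNHG15 lies outside the band in each panel for both kinds of value, and SNHG7 changes side of 0 when detrended in the panels with Rg3.

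Rg3 and TAM were also compared with each other, at their different doses, which needs no control library. SNHG15 had a fold of 0.353 (0.313 to 0.398), Rg3 over TAM, and SNHG7 one of 0.503 (0.438 to 0.577). These were the 2 of 10 members past the limit, where 65.3% of 16493 genes passed (35.1% higher and 30.2% lower, and 65.7% of those with 50 or more counts). Both had their whole interval past it, where 41.2% of all genes did. Detrended, SNHG15 was past the limit at the longest transcript (0.409), while at the RefSeq-matched ones it ranged from 0.558 to 0.671, on both sides of it. SNHG7 took the other direction, at 1.19. At the longest transcripts, 5 of the 10 passed when detrended, where 38.8% of 14266 genes did: ZFAS1 (2.23) and SNHG12 (1.63) were higher with Rg3, and SNHG15, SNHG6 (0.590) and GAS5 (0.660) lower. Of these, SNHG6 alone was also past the limit at every RefSeq-matched transcript, at 0.590 to 0.600.

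Among the members themselves, rho with GC content was smaller in size than over all genes, and the difference was not tested. Spearman's rho over the 10 was -0.31 with Rg3 and 0.30 with TAM, as a description of genes that share the same libraries. With transcript length it was -0.64 and -0.14, where all genes had 0.20 and -0.45. SNHG5 and SNHG15, on opposite sides of 0 with Rg3, had 47.1% and 49.7% GC in their longest transcripts, but 43.5% and 53.6% to 57.1% in the RefSeq-matched ones. With Rg3 the detrended log2 values furthest above the median of all genes were those of ZFAS1 (0.89), SNHG12 (0.65), SNHG5 (0.52) and SNHG7 (0.43).

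**Figure D3:**
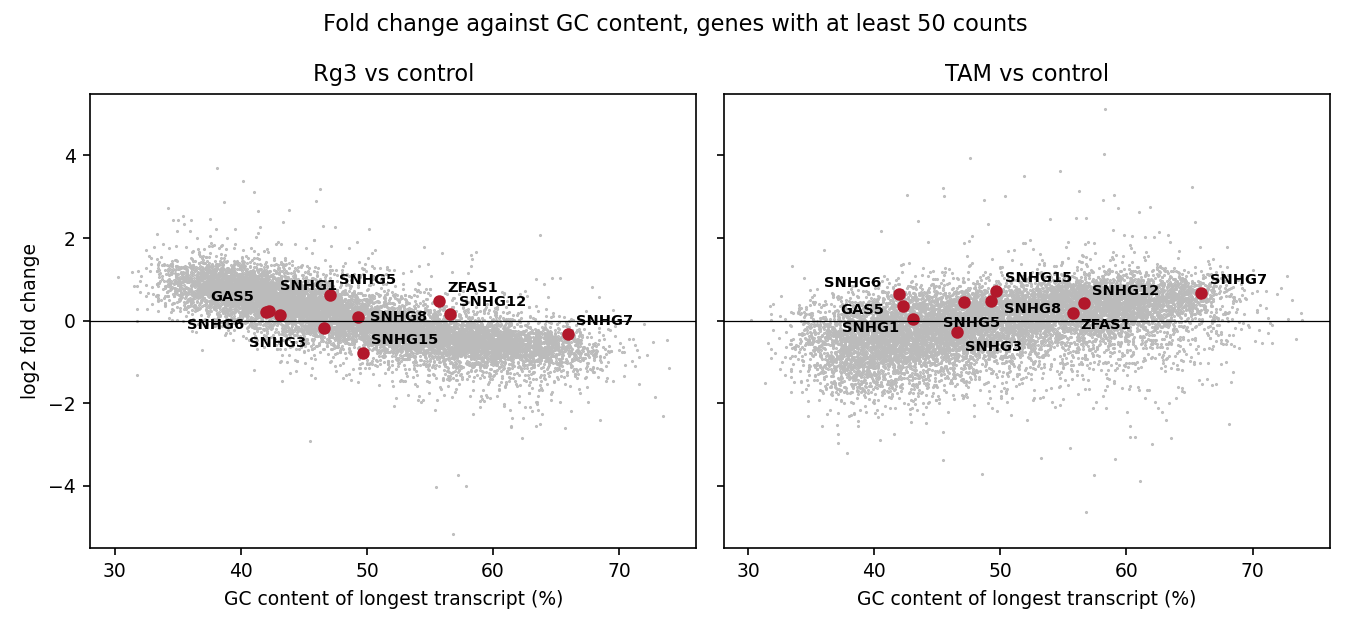
Log2 fold change (vertical axis) against the GC content of the longest GENCODE 29 transcript in percent (horizontal axis) for genes with 50 or more counts in 1 of the libraries compared (grey) and the 10 hosts (red), for Rg3 and TAM against control. The grey cloud falls with GC content for Rg3 (rho -0.81) and climbs for TAM (rho 0.51), and the hosts span 42.0% to 65.9% GC.

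Other genes of the pathway were taken from lists chosen with earlier results of these data known. Of 21 other noncoding snoRNA hosts, 15 had enough counts to be compared with the control library. SNHG4 was the 1 higher with Rg3 (45 counts against 15), with 0 lower, at a list median of 0.02. With TAM, 3 were higher and 1 lower, at a median of 0.30. SNHG11 (log2 fold change 1.03, 95% interval 0.56 to 1.52) and SNHG19 (0.95, 0.60 to 1.30) led there, while SNHG4 (25 counts) and MEG8 (5 counts, the 1 lower) rested on few reads. LRRC75A-AS1, a host with 2977, 3859 and 3005 counts in the control, Rg3 and TAM libraries, had log2 fold changes of 0.05 with Rg3 and 0.22 with TAM.

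The 39 protein-coding snoRNA hosts, most of them TOP mRNAs of ribosomal proteins and translation factors, had a median of 0.07 with Rg3 (5 higher, 1 lower) and 0.35 with TAM (6 higher, 2 lower). The 3 kinds of host therefore had TAM medians of 0.30 to 0.44, and detrended medians of 0.15 to 0.23. EIF4G2, a translation factor, was higher with Rg3 (0.74, 0.71 to 0.78) and lower with TAM (-0.76, -0.81 to -0.71), and stood at 0.09 and -0.04 when detrended. RPL17, which has near-identical pseudogene copies, was higher with both agents, at 0.78 and 0.81. TAF1D, a factor of ribosomal RNA transcription, was higher with Rg3 (0.94) and lower with TAM (-0.97), and PPAN, a factor of ribosome assembly, had the opposite calls (-0.80 and 0.75). Detrended, neither passed, at 0.09 and -0.45 for TAF1D and -0.13 and 0.17 for PPAN.

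NMD factors and decay enzymes act on the hosts. Of 19 NMD factors, Rg3 had 4 higher and 1 lower, at a median of 0.25, and TAM 3 higher and 3 lower, at 0.12. SMG1, the kinase that phosphorylates UPF1, had 1502, 2592 and 323 counts in the control, Rg3 and TAM libraries, and its log2 fold change with TAM was -2.01 (-2.19 to -1.84). Near-identical pseudogene copies of SMG1 exist, and how the counting split their reads is not given in the sources used here. UPF2, which bridges UPF1 to the exon junction complex, was higher with Rg3 (0.75) and lower with TAM (-1.55, -1.99 to -1.12), as was UPF3B (0.78 and -0.88). The detrended TAM values of these 3 genes were -1.16, -0.92 and -0.78, still past the limit, while with Rg3 UPF2 and UPF3B were at 0.08 and 0.26. RBM8A, a core protein of the exon junction complex, was higher with TAM (0.82, 0.72 to 0.93) and DHX34, a helicase of NMD, lower with Rg3 (-0.68). ETF1, the release factor that reads stop codons, was higher with Rg3 (0.76). Detrended, DHX34 (-0.03) and ETF1 (0.31) were inside the limit, and of the 19 factors 0 were higher and 1 was lower with Rg3, against 3 and 3 with TAM.

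Of 12 decapping and decay enzymes, 7 were higher with Rg3 and 0 lower, and 1 was higher and 7 lower with TAM. XRN1, the exonuclease that degrades RNA from the 5′ end, had 90, 331 and 38 counts, for log2 fold changes of 1.55 (1.21 to 1.90) and -1.04 (-1.62 to -0.48). DDX6 and CNOT1 were lower with TAM, at -1.33 and -1.23, while PNRC2 (0.94), DCP2 (0.79) and LSM1 (0.78) were higher with Rg3. Detrended, 2 were higher and 1 was lower with Rg3, against 0 and 1 with TAM. The medians went from 0.65 to 0.09 and from -0.65 to -0.28.

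Coding mRNAs known as NMD substrates, 9 in all, had medians of 0.13 with Rg3 (2 higher, 1 lower) and 0.36 with TAM (3 higher, 0 lower). DDIT3, a stress transcription factor, was higher with both agents, with 228, 680 and 382 counts (log2 fold changes 1.25 and 0.95). ATF3 was higher with Rg3 (1.09, 0.51 to 1.71) and GADD45B lower (-0.62). UPP1 (0.63) and NAT9 (0.59) were higher with TAM. Detrended, the order of the agents turned, with medians of 0.32 with Rg3 (4 higher, 0 lower) and 0.06 with TAM (1 higher, 0 lower). GADD45B with Rg3 (-0.03) and UPP1 (0.52) and NAT9 (0.08) with TAM were then inside the limit. The 18 proteins that bind or assemble snoRNAs had medians of 0.08 with Rg3 (2 higher, 4 lower) and 0.09 with TAM (1 higher, 3 lower). Detrended, 0 of the 17 with a GC content passed in either direction. NOP58, a core protein of box C/D particles, was higher with Rg3 (0.76), and NHP2, a core protein of box H/ACA particles, was higher with TAM (0.74). The assembly helicases RUVBL1 (-0.71) and RUVBL2 (-0.73) were lower with Rg3.

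**Figure D4:**
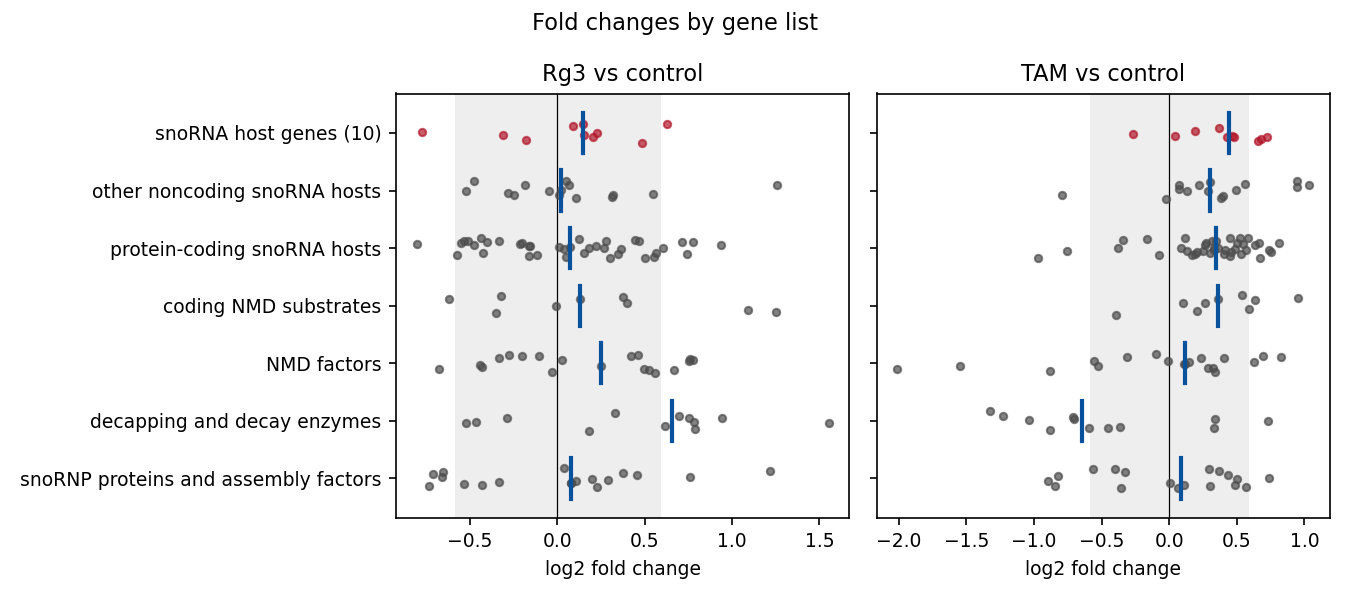
Log2 fold changes against control for the 10 hosts (red) and for the genes of 6 other lists (dark grey, each point 1 gene), with Rg3 and with TAM; blue bars are medians and the grey band spans folds of 0.67 to 1.5. Decapping and decay enzymes have the outermost medians, 0.65 with Rg3 and -0.65 with TAM, and the hosts have medians of 0.15 and 0.44.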

How the data were processed

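PANC-1 cells were profiled in 3 libraries, 1 for each of the control, Rg3 and TAM conditions, with conditions, doses and time from the sample labels. The authors sequenced total RNA on the Ion Proton, checked reads with FAST-QC, aligned them with TopHat and deposited unnormalized counts, 1 row per gene symbol. The submitters' processing notes name GRCh38; the counting tool, annotation and use of strand are not given in the sources used here. Of the deposited values, all columns belonged to a mapped library.

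Counts were scaled with TMM factors (edgeR 4.0.16, R 4.3.3). They came to 1.02 (control), 1.12 (Rg3) and 0.879 (TAM). A gene was compared when 1 of its libraries held at least 10 counts, and counts under 3 were raised to 3. No p-value is given, since the study's Limma test needs replicates; a call is a fold over 1.5 or under 0.67, and the exact (Clopper-Pearson) 95% intervals, computed in Python 3.11.15 with scipy 1.17.1, compare libraries and leave out the variation between cultures. GC content and length came from the longest transcript listed under each name in GENCODE 29, found for 86.6% of genes compared for Rg3 and 87.2% for TAM; the trend was a loess fit (span 0.3) over genes with at least 50 counts, and the median of all genes was added back. Alternatives were scaling by totals, DESeq2 1.42.0 size factors, a minimum of 1 or 50 counts, the interval past the fold, an exact binomial test, the edgeR exact test at a biological variation set to 0.2 or 0.4, detrending, and members without overlaps. The calculation was tested on simulated data.

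The members and lists were chosen with earlier results of these data known. All members are named; of each other list, up to 4 genes past the fold with the largest change and at least 50 counts are the examples, and SNHG4, MEG8 and LRRC75A-AS1 were chosen after their values were seen, as were single values of genes named in another comparison. Sequences are from RefSeq (GRCh38.p14) and GENCODE 29.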

Additional observations from a re-analysis of the deposited data

How the results depend on the processing

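No paired analysis was possible because there was 1 library per condition, and no replicate could be left out. With DESeq2's size factors, a minimum of 1 or 50 counts, or an exact binomial test beside the fold, each of the 30 member values kept its side of the limits and its direction. With library totals, 0 members passed with TAM against control, at a median of 0.23, and the median of Rg3 against TAM was 0.14, of the other sign. With the whole counting interval past the fold, 1 member passed with Rg3 and 0 with TAM, beside 2695 and 2475 of all genes, and 6799 genes passed for Rg3 against TAM. With an assumed variation of 0.2, 0, 0 and 1 members passed with Rg3, with TAM and for Rg3 against TAM, beside 156, 474 and 5097 genes; the 1 was SNHG15. With 0.4, 0 members passed in each, beside 1, 1 and 0 genes. Detrended at the longest transcripts, the median with Rg3 was -0.0315 and that with TAM 0.23. There 1 member passed with TAM and 5 for Rg3 against TAM, and 2713, 4145 and 5538 of 14276, 14013 and 14266 genes passed. SNHG7 then reversed for Rg3 against TAM, to 0.26 at the longest transcript and to between 0.031 and 0.13 at the RefSeq-matched ones. Each member overlaps some annotated gene, so that the planned set without overlaps was empty. Among SNHG1, SNHG5, SNHG8 and SNHG15, which overlap small RNA genes only, 2 passed with Rg3, 1 with TAM and 1 for Rg3 against TAM. This set and the RefSeq-matched transcripts were chosen after the data were seen. The intervals cover counting error, and were widest for the 2 members with the fewest counts, SNHG8 and SNHG12. The variation between cultures was not measured.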

Other observations

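The snoRNAs cut from the introns of the 10 hosts are listed as genes of their own, in 34 rows of the table. They received few reads, with 123, 155 and 98 in the control, Rg3 and TAM libraries, beside 4955, 7220 and 5690 on the hosts. That is 2.42% of the reads on hosts and snoRNAs in the control library (2.02 to 2.88, exact binomial 95% interval), 2.10% with Rg3 (1.79 to 2.46) and 1.69% with TAM (1.38 to 2.06). Counts on a single snoRNA reached at most 15, and 7 of the 34 had at least 10 in a library. SNORA9, in SNHG15, had 12, 9 and 15 counts in the control, Rg3 and TAM libraries, in the same order as its host. Its log2 intervals against control were wide, at -2.17 to 0.63 with Rg3 and -0.67 to 1.75 with TAM. An annotated exon of SNHG15 overlaps SNORA9 by 133 bases on the same strand, so reads there cannot be told apart. The share of SNORA9 beside the host was 2.08%, 2.13% and 1.82%, with overlapping intervals. SNORD80, in GAS5, had 4, 14 and 9 counts, SNORD29 and SNORD31, in SNHG1, had 2, 10 and 2 and 6, 12 and 3, SNORA73A and SNORA73B, in SNHG3, had 11, 13 and 9 and 13, 15 and 7, and SNORA61, in SNHG12, had 11, 9 and 10.

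The snoRNAs of SNHG12 had the largest share beside their host, 16.8% in the control library (9.94 to 25.9), and those of SNHG5 and SNHG6 at most 0.256% in a library. Annotated exons of SNHG12 overlap SNORA16A, SNORA44 and SNORA61 on the same strand. Exons of every other host but GAS5 also overlap a snoRNA on the same strand. Reads there cannot be told apart, so the shares here and above do not separate host reads from snoRNA reads. The protocol names a silica column, of a kind that retains little very short RNA. Its part in these counts was not tested, and the counts are not read as levels of the mature snoRNAs.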
